A study of Mus musculus with 8 samples.

Results

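The immunoglobulin constant region genes are the genes of the antibody heavy and light chains that do not vary with the antigen. The 10 genes described here are *Ighm*, *Ighd*, *Ighg1*, *Ighg2b*, *Ighg2c*, *Ighg3* and *Igha* of the heavy chain, *Igkc* of the kappa light chain, and *Iglc1* and *Iglc2* of the lambda light chain. They were chosen by symbol, as 10 of the 54188 genes in the count table, and all 10 were among the 17650 genes that passed the filter on low counts. The rule used only the symbol, but the list of members was drawn up with earlier results of these data known.

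The libraries were made from spleen (SP) and bone marrow (BM) of sanroque mice, after CD11b+Gr-1hi and CD11b+Gr-1lo cells had been sorted. These mice are homozygous for the san allele of Roquin on a C57BL/6 background, develop a lupus-like disease, and were about 20 weeks old. All 4 groups carry the mutation, and no wild-type library was analysed here, so that no value below measures an effect of the allele. Each group has 2 libraries: 5 and 6 are SP Gr-1hi, 7 and 8 are SP Gr-1lo, 9 and 10 are BM Gr-1hi, and 11 and 12 are BM Gr-1lo. The labels call Gr-1hi cells G-MDSC and Gr-1lo cells M-MDSC, for granulocytic and monocytic myeloid-derived suppressor cells. No label ties a library to a mouse, so that p-values below measure the spread between libraries.

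As background, a B cell first makes a heavy chain that joins its variable segment to *Ighm* and, by alternative RNA processing, to *Ighd*. Class switching then replaces them by a constant gene further along the locus, which gives IgG, IgE or IgA without changing the antigen that is bound. Each heavy chain pairs with a kappa or a lambda light chain. Resting B cells carry the antibody as a membrane receptor with CD79A and CD79B, and plasma cells secrete it in large amounts. Myeloid cells bind antibody through Fc receptors.

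The 7 heavy chain genes lie on the minus strand of chromosome 12 in GRCm38, in the order *Ighm*, *Ighd*, *Ighg3*, *Ighg1*, *Ighg2b*, *Ighg2c* and *Igha* in the direction of transcription. *Ighm* (ENSMUSG00000076617) spans chr12:113418558-113422730, and *Igha* (ENSMUSG00000095079) at the far end of the locus spans chr12:113254830-113260236. *Igkc* (ENSMUSG00000076609) is a single exon at chr6:70726435-70726966 on the plus strand. *Iglc1* (ENSMUSG00000105906) and *Iglc2* (ENSMUSG00000076937) are on the minus strand of chromosome 16, at chr16:19061618-19062071 and chr16:19198396-19200351.

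Several of these genes resemble each other, among them the 4 IgG genes. *Ighg2b* and *Ighg2c* were identical at 86.2% of the aligned bases of their shorter annotated transcripts, and the other pairs of IgG genes at 73.04% to 74.95%. The longest stretch that any pair of constant genes shared was 88 bases, between *Ighg2b* and *Ighg3*. The reads were 101 bases long, and no stretch of 101 bases in a member occurred in another constant gene or in any other annotated transcript. Of all stretches of 50 bases, 5.49% in *Ighg2c*, 4.15% in *Ighg2b*, 1.58% in *Ighg3* and 0.393% in *Ighg1* also occurred elsewhere. How the authors treated reads that match more than 1 gene is not given in the sources used here.

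The hinge exon, which joins the antigen-binding arm to the stem of the antibody, differs in length and sequence between the IgG genes. It is exon 2 of 4 in each transcript below, and the sequences are shown because the IgG genes move differently from *Ighm* and *Igha* in the results. They are from the GENCODE M21 transcripts on GRCm38, 5′ to 3′ on the minus strand.
Ighg1, chr12:113329844-113329882: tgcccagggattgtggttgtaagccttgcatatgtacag
Ighg2b, chr12:113307261-113307326: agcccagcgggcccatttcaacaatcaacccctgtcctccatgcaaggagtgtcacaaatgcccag
Ighg2c, chr12:113288263-113288325: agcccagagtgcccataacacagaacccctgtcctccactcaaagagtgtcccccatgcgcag
Ighg3, chr12:113360529-113360576: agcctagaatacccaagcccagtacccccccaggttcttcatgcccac
They run from 39 bp in *Ighg1* to 66 bp in *Ighg2b*, and none of them occurs in the annotated transcripts of another constant gene.

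The lambda genes are shown because *Iglc1* and *Iglc2* took different courses across the libraries. *Iglc2* shares more with *Iglc3*, a lambda gene outside the 10, than with *Iglc1*. The same window of 90 bp is shown in each gene, and capitals mark bases that differ from *Iglc2*.
Iglc2, chr16:19198749-19198838: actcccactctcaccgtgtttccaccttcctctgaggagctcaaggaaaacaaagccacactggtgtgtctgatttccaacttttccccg
Iglc3, chr16:19065578-19065667: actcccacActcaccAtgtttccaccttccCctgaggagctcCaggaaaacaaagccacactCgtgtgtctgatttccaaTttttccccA
Iglc1, chr16:19061968-19062057: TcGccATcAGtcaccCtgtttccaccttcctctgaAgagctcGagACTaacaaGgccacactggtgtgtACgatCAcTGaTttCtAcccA
*Iglc3* differed from *Iglc2* at 7 of the 90 bases and *Iglc1* at 23. Over whole transcripts, *Iglc2* was identical to *Iglc3* at 94.9% of aligned bases and to *Iglc1* at 73.9%. Of the stretches of 50 bases in *Iglc2*, 7.65% also occurred in *Iglc3*. Of those in *Iglc3*, 10.67% also occurred in *Iglc2* and 11.66% in another annotated gene, so that the counts of both are uncertain.

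The libraries held 33453580 to 68316154 counts, and values are given as CPM, the usual scaling of counts to library size, after edgeR's TMM correction. *Ly6g*, part of the Gr-1 epitope, was at 330 to 801 CPM in the 4 Gr-1hi libraries and 3.07 to 8.23 CPM in the 4 Gr-1lo libraries, and *Itgam*, which encodes CD11b, was at 734 CPM or more in every library. All mice are labelled female. However, the Y-linked gene *Ddx3y* was at 33.7 to 82.6 CPM in 7 libraries and at 0 in library 5, while *Xist* was at 363 CPM in library 5, 209 CPM in library 7 and at most 0.102 CPM in the others. By these genes only library 5 matches the label. Library 7 held both genes, and the others, with all BM libraries among them, held *Ddx3y* with almost no *Xist*. Each SP group therefore holds 1 library unlike its replicate and unlike the BM libraries, so that this difference is partly confounded with tissue. Results are also given without libraries 5 and 7. That fit has no replicate in either SP group, so that its spread comes from the BM libraries alone. Leaving out any single library likewise leaves its group without a replicate.

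Constant gene transcripts made up 0.224% to 0.326% of all counts in the 4 SP libraries, against 0.0185% to 0.0726% in the 4 BM libraries. Their summed level was 3283 and 2727 CPM in SP Gr-1hi, 1868 and 2582 CPM in SP Gr-1lo, 293 and 256 CPM in BM Gr-1hi, and 420 and 577 CPM in BM Gr-1lo. Hence every SP library was above every BM library, and BM Gr-1hi was lowest. The order of the SP subsets depends on the scaling. The TMM factors were 0.863 and 0.820 in SP Gr-1hi and 1.29 and 1.26 in SP Gr-1lo. As shares of all counts the SP subsets overlapped, with 0.283% and 0.224% in Gr-1hi and 0.240% and 0.326% in Gr-1lo. In such bulk samples, fewer cells of a type and less RNA per cell cannot be told apart.

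**Figure D1:**
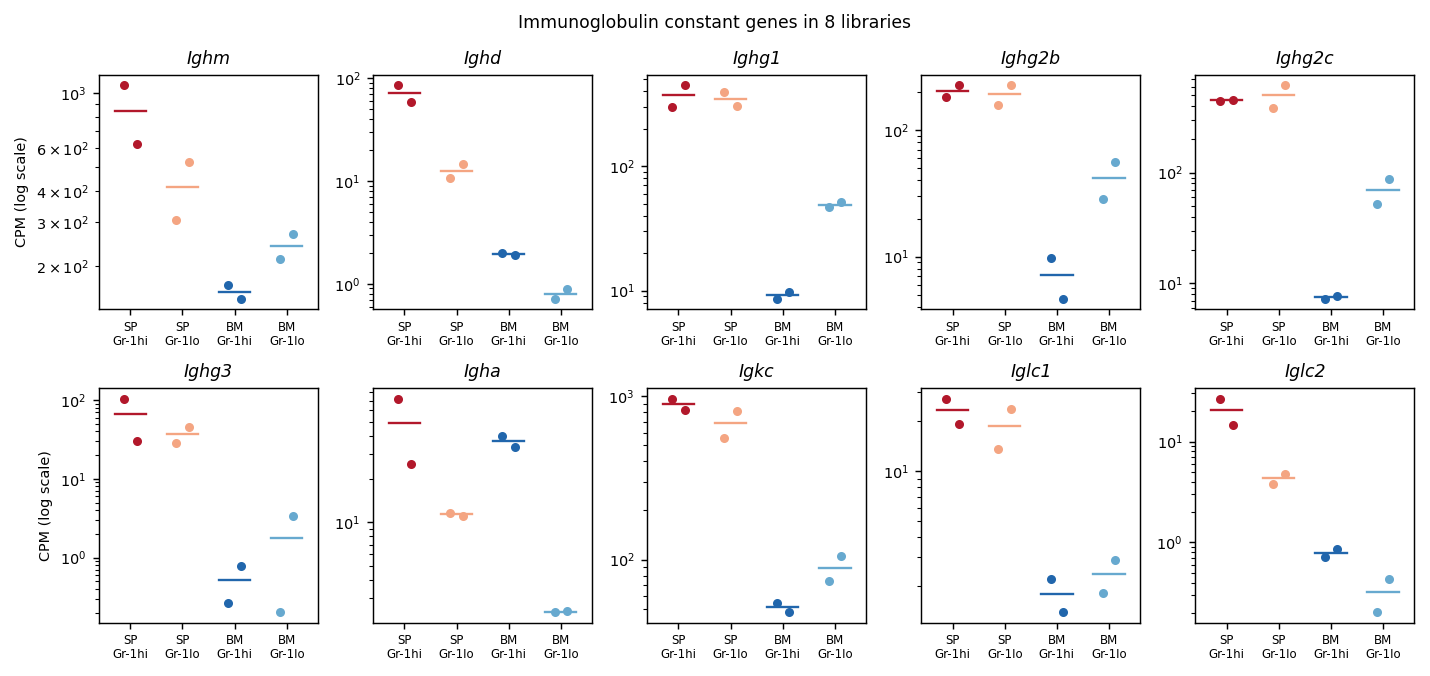
CPM of the 10 constant genes in each library, on log axes that differ between panels, with the mean of the 2 libraries of each group as a line. Most genes are higher in both SP groups than in both BM groups, whereas *Igha* is high in both Gr-1hi groups, and *Ighd* and *Iglc2* step down from SP Gr-1hi to BM Gr-1lo.

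*Ighm*, the IgM heavy chain and the first isotype a B cell makes, was at 1074 and 622 CPM in SP Gr-1hi, 307 and 523 CPM in SP Gr-1lo, 167 and 148 CPM in BM Gr-1hi, and 213 and 269 CPM in BM Gr-1lo. Its level per kb of exon was the highest of the heavy chain genes in each BM library, and the 4 SP libraries were all higher than the 4 BM libraries. *Ighd*, the IgD heavy chain that mature naive B cells carry beside IgM, was at 85.5 and 58.3 CPM in SP Gr-1hi and 10.6 and 14.5 CPM in SP Gr-1lo. It was at 1.98 and 1.90 CPM in BM Gr-1hi and 0.717 and 0.888 CPM in BM Gr-1lo. The 4 groups did not overlap for *Ighd*, in the order SP Gr-1hi, SP Gr-1lo, BM Gr-1hi and BM Gr-1lo. Such separation of the subsets was common. Of all genes tested, 40.6% in SP and 40.6% in BM were higher in Gr-1hi than in Gr-1lo without overlap.

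The IgG genes followed another order. *Ighg1* was at 298 and 448 CPM in SP Gr-1hi, 391 and 305 CPM in SP Gr-1lo, 8.64 and 9.82 CPM in BM Gr-1hi, and 47.1 and 51.2 CPM in BM Gr-1lo. *Ighg2b* was at 182 and 226 CPM in SP Gr-1hi, 157 and 226 CPM in SP Gr-1lo, 9.68 and 4.66 CPM in BM Gr-1hi, and 28.3 and 55.5 CPM in BM Gr-1lo. *Ighg2c*, the IgG2 gene that C57BL/6 mice carry in place of *Ighg2a*, was at 444 and 456 CPM in SP Gr-1hi, 386 and 617 CPM in SP Gr-1lo, 7.29 and 7.64 CPM in BM Gr-1hi, and 52.2 and 87.3 CPM in BM Gr-1lo. In these 3 genes the SP groups overlapped, and BM Gr-1lo was above BM Gr-1hi in every library. Of all genes tested, 48.2% were lower in BM Gr-1hi than in BM Gr-1lo without overlap. *Ighg3*, an IgG that is often made against carbohydrates, was at 105 and 29.8 CPM in SP Gr-1hi and 28.9 and 45.8 CPM in SP Gr-1lo. In BM it was at 0.262 and 0.784 CPM in Gr-1hi and 0.205 and 3.36 CPM in Gr-1lo. Its lowest value is 7 counts in library 9, and its 2 libraries lay far apart in SP Gr-1hi and in BM Gr-1lo.

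*Igha*, the heavy chain of IgA that protects mucosal surfaces, was at 72.5 and 25.3 CPM in SP Gr-1hi and 40.1 and 33.2 CPM in BM Gr-1hi. It was at 11.7 and 11.0 CPM in SP Gr-1lo and 2.40 and 2.42 CPM in BM Gr-1lo. The Gr-1hi libraries of both tissues were therefore above all Gr-1lo libraries, and those of SP and BM overlapped. None of the other members showed this order.

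*Igkc*, the constant part of nearly all mouse light chains, was at 969 and 828 CPM in SP Gr-1hi, 558 and 811 CPM in SP Gr-1lo, 54.7 and 47.9 CPM in BM Gr-1hi, and 73.8 and 105 CPM in BM Gr-1lo. *Iglc1* was at 27.5 and 19.2 CPM in SP Gr-1hi, 13.6 and 23.6 CPM in SP Gr-1lo, 2.21 and 1.40 CPM in BM Gr-1hi, and 1.82 and 2.91 CPM in BM Gr-1lo. *Iglc2* was at 26.7 and 14.4 CPM in SP Gr-1hi, 3.82 and 4.81 CPM in SP Gr-1lo, 0.710 and 0.867 CPM in BM Gr-1hi, and 0.205 and 0.435 CPM in BM Gr-1lo. Thus *Iglc1* overlapped between the subsets within each tissue, whereas *Iglc2* fell through the 4 groups in the order seen for *Ighd*.

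The constant genes were tested first between SP and BM within each subset, with edgeR's quasi-likelihood test and Benjamini-Hochberg adjustment over all genes, which also gave the adjusted p of every later comparison. In Gr-1hi cells 9 of the 10 genes rose in SP, at a fold change (FC) of 2 or more with an adjusted p up to 0.05, and *Igha* was the exception. Of all genes tested, 14.0% were called higher in the same comparison. The median log2 FC was 4.76 over the 10 genes and 0.03 over all genes. The SP and BM libraries did not overlap for the same 9 genes, and 35.9% of all genes were higher in SP without overlap.

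Among the switched isotypes in Gr-1hi cells, *Ighg2c* rose by a log2 FC of 5.91 ± 0.34 (SE, adjusted p = 9.55e-05), *Ighg1* by 5.34 ± 0.24 (adjusted p = 5.47e-05) and *Ighg2b* by 4.82 ± 0.49 (adjusted p = 0.0011). The largest difference, 7.03 ± 1.45 in *Ighg3*, was also the least precise (adjusted p = 0.0179), and was no longer called when any of libraries 5, 7, 8, 9 or 10 was left out (adjusted p 0.0507 to 0.0870). Of the unswitched isotypes, *Ighd* rose by 5.21 ± 0.26 (adjusted p = 7.78e-05) and *Ighm* by only 2.43 ± 0.34 (adjusted p = 0.00275). The light chains rose by 4.13 ± 0.24 in *Igkc*, 3.68 ± 0.39 in *Iglc1* and 4.71 ± 0.40 in *Iglc2*, with adjusted p of at most 0.000548. *Igha* differed by 0.42 ± 0.43 (adjusted p = 0.494), and without library 5 the difference was -0.62. Without libraries 5 and 7, 7 genes were called, and *Ighg2b* (adjusted p = 0.0527) and *Ighg3* (adjusted p = 0.181) were not.

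In Gr-1lo cells 7 of the 10 genes rose in SP, against 3.84% of all genes tested. The median log2 FC was 2.89 over the 10 genes and -0.01 over all genes. *Ighd* rose by 3.96 ± 0.26 (adjusted p = 0.000387), *Ighg1* by 2.82 ± 0.21 (adjusted p = 0.000396) and *Ighg2c* by 2.85 ± 0.29 (adjusted p = 0.00161). The light chains rose by 2.94 ± 0.23 in *Igkc*, 2.98 ± 0.35 in *Iglc1* and 3.73 ± 0.42 in *Iglc2* (adjusted p at most 0.00258). *Ighg2b* was called at 2.19 ± 0.43 (adjusted p = 0.0369) but lost the call without any of libraries 5, 6, 7, 8, 11 or 12. Its log2 FC was 1.79 to 2.76 without single libraries. It also lost the call in an edgeR fit of the 4 libraries compared (adjusted p = 0.082) and with no genes filtered out (adjusted p = 0.175).

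The other 3 genes were not called in Gr-1lo cells, although all 10 were higher in both SP libraries than in both BM libraries, as were 27.1% of all genes. *Ighm* differed by 0.79 ± 0.32 (adjusted p = 0.239), *Ighg3* by 4.36 ± 1.13 (adjusted p = 0.117) and *Igha* by 2.24 ± 0.49 (adjusted p = 0.0553). *Igha* was called when library 5 or library 6 was left out (adjusted p 0.00013 and 0.000113), neither of which is in the comparison but both of which enter the estimate of the spread. DESeq2 called *Ighg3* (4.33, adjusted p = 0.0198) and *Igha* (2.18, adjusted p = 2.47e-06), and edgeR called *Igha* in a fit of the 4 libraries compared (adjusted p = 0.000746). Without libraries 5 and 7 together, which leaves no SP replicate, the log2 FC was 1.11 in *Ighm*, 2.18 in *Igha* and 2.42 in *Ighg2b*.

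**Figure D2:**
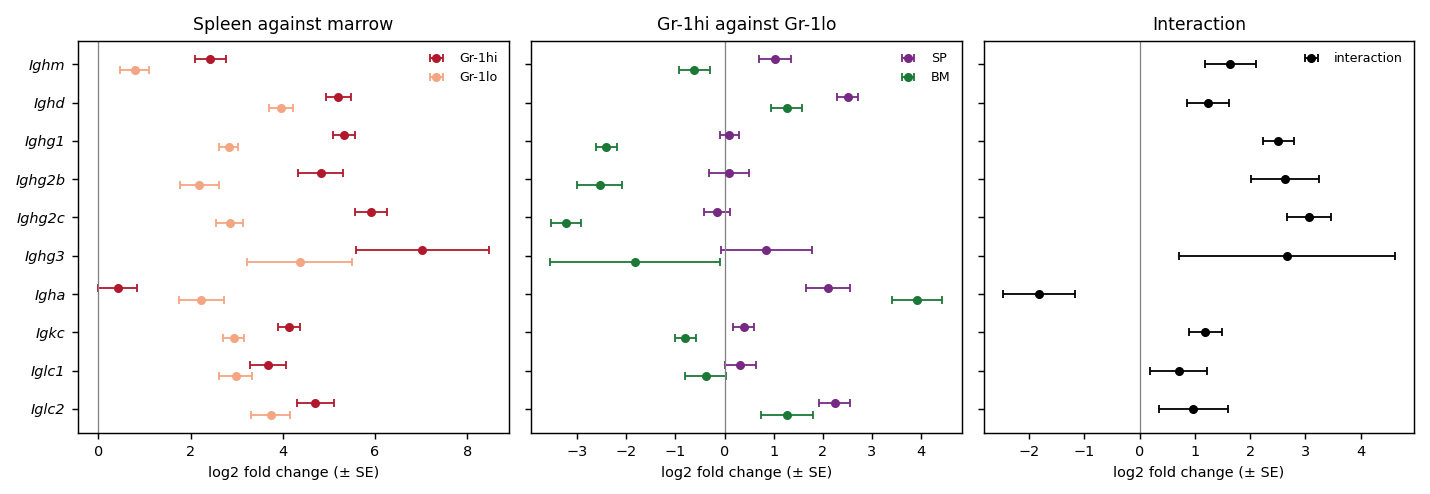
Log2 FC (points) with SE (bars) of each constant gene from the edgeR fit, for SP against BM in each subset, for Gr-1hi against Gr-1lo in each tissue, and for the interaction of both. The SP against BM differences of the IgG genes *Ighg1*, *Ighg2b* and *Ighg2c* are 2.51 to 3.07 larger on the log2 scale in Gr-1hi than in Gr-1lo cells, and *Igha* lies on the other side of 0 in the interaction.

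Whether the tissue difference itself differed between subsets was tested as an interaction. It was larger in Gr-1hi than in Gr-1lo cells for 4 of the 10 genes, against 7.74% of all genes tested. These were *Ighg2c* (3.07 ± 0.40 on the log2 scale, adjusted p = 0.00482), *Ighg2b* (2.63 ± 0.61, adjusted p = 0.0348), *Ighg1* (2.51 ± 0.28, adjusted p = 0.00283) and *Igkc* (1.19 ± 0.30, adjusted p = 0.0351). *Ighm* (1.64 ± 0.46, adjusted p = 0.0543) and *Ighd* (1.24 ± 0.38, adjusted p = 0.0589) missed the threshold. *Igha* differed in the opposite direction (-1.82 ± 0.65, adjusted p = 0.109).

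Only *Ighg1* kept its call for the interaction in each alternative fit, and *Ighg2c* lost it in 1 of them, when libraries 5 and 7 were both left out (adjusted p = 0.054). *Ighg2b* lost its call without any of libraries 5, 6, 7, 8, 10 or 12, and *Igkc* without any of 5, 6, 7, 9, 10 or 12. *Igha* gained one without library 5 (-2.87, adjusted p = 0.000809), without library 6 (-1.35, adjusted p = 0.00196) and without libraries 5 and 7 together (-2.70, adjusted p = 0.00314). *Ighm* gained one without library 6 or 8 and *Ighd* without library 6.

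The subsets were then compared within SP and within BM, where a call needed an FC above 8 with an adjusted p under 0.01. These comparisons share their libraries with those of SP and BM. In SP, edgeR and DESeq2 each called 0 of the 10 genes at these thresholds, where edgeR called 4.44% of all genes higher and 2.93% lower. In the edgeR test 4 of the 10 genes had an unadjusted p under 0.05, as did 13016 of all 17650 genes tested. At the thresholds used for SP and BM, 4 of the 10 genes were higher in Gr-1hi cells, against 22.3% of all genes. These were *Ighd* (2.51 ± 0.21, adjusted p = 1.25e-05), *Iglc2* (2.25 ± 0.32, adjusted p = 0.000258), *Igha* (2.11 ± 0.45, adjusted p = 0.005) and *Ighm* (1.03 ± 0.32, adjusted p = 0.0245). *Ighm* lost this call without library 5 (0.56, adjusted p = 0.195), without library 7 (0.67, adjusted p = 0.102), without both (0.23, adjusted p = 0.319) and with no genes filtered out (0.89, adjusted p = 0.23), and fell just under an FC of 2 without library 9 or 10. *Igha* lost it with no genes filtered out (1.98, adjusted p = 0.0605). Without libraries 5 and 7 the log2 FC was 1.98 in *Ighd*, 1.18 in *Igha* and 1.56 in *Iglc2*, with no replicate in either SP group.

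For *Ighg1*, *Ighg2b* and *Ighg2c* no difference between the SP subsets was called. The log2 difference was 0.10 ± 0.19 in *Ighg1* (adjusted p = 0.664), 0.09 ± 0.41 in *Ighg2b* (adjusted p = 0.854) and -0.16 ± 0.27 in *Ighg2c* (adjusted p = 0.622), and its sign turned without library 6 or 8 in *Ighg1* (-0.25 and -0.09), without library 6 or 7 in *Ighg2b* (-0.10 and -0.18), and without library 8 in *Ighg2c* (0.20). *Igkc* differed by 0.39 ± 0.21 (adjusted p = 0.129), *Iglc1* by 0.32 ± 0.31 (adjusted p = 0.385) and *Ighg3* by 0.85 ± 0.93 (adjusted p = 0.447).

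In BM, *Igha* was higher in Gr-1hi than in Gr-1lo cells by a log2 FC of 3.93 ± 0.51 (adjusted p = 0.00039), and *Ighg2c* was lower by -3.22 ± 0.31 (adjusted p = 3.35e-05). They were the 2 genes called at an FC above 8, where 6.56% of all genes were called higher and 10.1% lower. *Ighg2c* fell short of that FC without library 12 (-2.83), and *Ighg2b* passed it without library 9 (-3.11). At the wider thresholds, *Ighd* (1.27 ± 0.32, adjusted p = 0.00604) and *Igha* were higher, against 24.2% of all genes, and *Ighg1* (-2.41 ± 0.21, adjusted p = 1.2e-05), *Ighg2b* (-2.54 ± 0.46, adjusted p = 0.00213) and *Ighg2c* were lower, against 33.1%. Without the filter on low counts, *Igha* missed the stricter limit (adjusted p = 0.0103).

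Among the remaining members in BM, *Igkc* was lower in Gr-1hi cells by -0.80 ± 0.22 (adjusted p = 0.00948), short of an FC of 2. *Ighm* differed by -0.61 ± 0.32 (adjusted p = 0.124), *Iglc1* by -0.39 ± 0.42 (adjusted p = 0.419), *Iglc2* by 1.28 ± 0.54 (adjusted p = 0.0572) and *Ighg3* by -1.82 ± 1.73 (adjusted p = 0.377). Without library 12 the difference in *Ighg3* was 1.29.

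The make-up of the heavy chain transcripts is described next, as shares of the counts on the 7 genes and without a test. The 95% Wilson intervals of these shares were at most 2.499 percentage points wide and cover counting error only. IgG genes took 45.5% and 62.2% in SP Gr-1hi, 74.5% and 68.5% in SP Gr-1lo, 11.0% and 11.1% in BM Gr-1hi, and 37.1% and 42.1% in BM Gr-1lo. The unswitched genes *Ighm* and *Ighd* together took 51.3% and 36.5% in SP Gr-1hi, 24.6% and 30.9% in SP Gr-1lo, 72.0% and 72.7% in BM Gr-1hi, and 62.2% and 57.4% in BM Gr-1lo. Hence IgG took more counts than the unswitched genes in both SP Gr-1lo libraries and in 1 of 2 SP Gr-1hi libraries, and the reverse held in all BM libraries. Per kb of the shorter form IgG also led in SP Gr-1hi library 5, with 51.2% against 45.2%. On that scale the 2 were nearly level in BM Gr-1lo library 12, with 49.44% IgG and 49.95% unswitched.

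**Figure D3:**
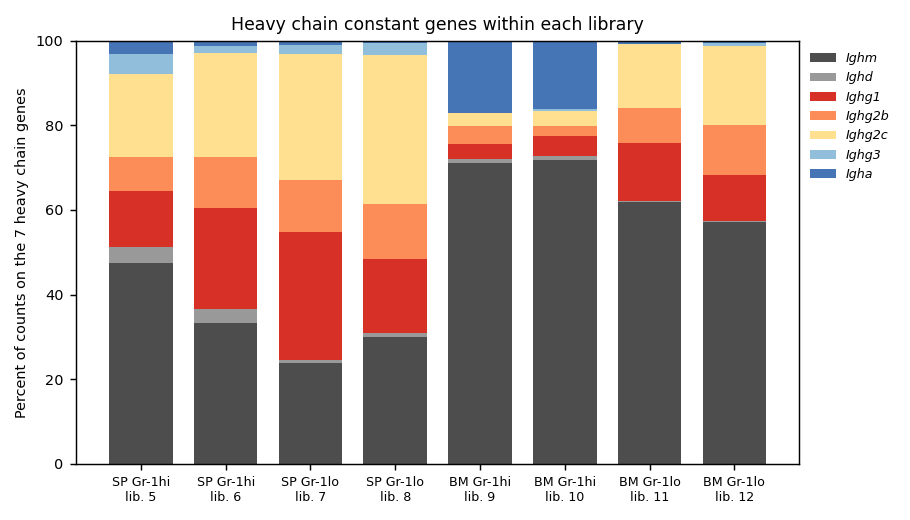
Share of each heavy chain constant gene in the counts on all 7, for each library (stacked to 100%). *Ighm* takes 23.7% to 47.5% in SP and 57.2% to 71.8% in BM, and *Igha* takes 16.1% to 17.0% in the BM Gr-1hi libraries.

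*Igha* took 17.0% and 16.1% of heavy chain counts in BM Gr-1hi, 3.21% and 1.36% in SP Gr-1hi, 0.905% and 0.632% in SP Gr-1lo, and 0.697% and 0.515% in BM Gr-1lo. Within IgG, *Ighg2c* was the gene with the highest level per kb of exon in every library. Its CPM per kb was 2.92 and 1.99 times that of *Ighg1* in SP Gr-1hi, 1.93 and 3.95 times in SP Gr-1lo, 1.65 and 1.52 times in BM Gr-1hi, and 2.17 and 3.33 times in BM Gr-1lo. The exon lengths differ, 1326 bp in *Ighg2c* and 2592 bp in *Ighg1*, because the annotation gives *Ighg1* a long last part in its longer form, so that this ratio depends on which form was expressed. Per kb of the shorter form, *Ighg1* took a larger share than *Ighg2c* of the heavy chain level in SP Gr-1hi library 6 (26.5% and 26.2%), in SP Gr-1lo library 7 (32.8% and 31.4%) and in BM Gr-1hi libraries 9 (4.60% and 3.76%) and 10 (6.00% and 4.51%).

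*Ighm* and *Ighd* are made from 1 primary transcript, and their ratio varied widely. There were 12.6 and 10.7 *Ighm* counts per *Ighd* count in SP Gr-1hi, 28.9 and 36.1 in SP Gr-1lo, 84.5 and 77.7 in BM Gr-1hi, and 297 and 302 in BM Gr-1lo. The groups did not overlap. In both tissues the ratio was higher in Gr-1lo than in Gr-1hi cells.

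The ratio of constant gene to variable segment separated *Ighm* from *Igkc*. *Ighm* stood at 1.73 and 1.09 times the summed CPM of 185 heavy chain V segments in SP Gr-1hi, 0.742 and 0.978 times in SP Gr-1lo, 2.91 and 3.34 times in BM Gr-1hi, and 4.19 and 3.72 times in BM Gr-1lo. The BM libraries thus had more *Ighm* per V segment than any SP library. The same V segments also join the other heavy chain genes, so that this ratio depends on the IgG share as well. The 7 heavy chain genes summed to 3.64 and 3.27 times these V segments in SP Gr-1hi, and 3.13 and 3.26 in SP Gr-1lo. In BM they summed to 4.08 and 4.65 times in Gr-1hi, and 6.77 and 6.499 times in Gr-1lo. Every BM library was still above every SP library, with BM Gr-1hi nearer to SP than BM Gr-1lo. *Igkc* stood at 1.34 to 1.58 times the summed CPM of 160 kappa V segments in all 8 libraries, with no separation of the groups. The summed heavy V segments ranged from 413 to 621 CPM in SP and 44.2 to 72.2 CPM in BM.

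Heavy chain counts were also higher relative to light chain counts in BM. The ratio of heavy to light chain CPM was 2.08 to 2.25 in the 4 SP libraries and 4.09 to 4.54 in the 4 BM libraries. Per kb of exon it was 0.606 to 0.631 in SP and 1.08 to 1.28 in BM. On both scales SP and BM did not overlap.

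**Figure D4:**
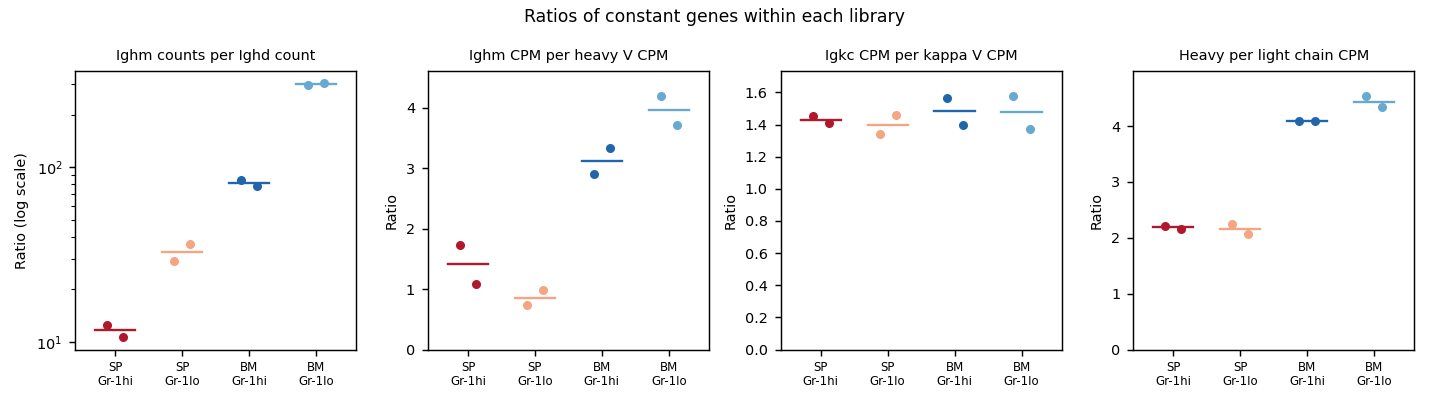
Ratios within each library (points) with the group mean (lines), for *Ighm* counts per *Ighd* count (log axis), *Ighm* CPM per CPM of heavy chain V segments, *Igkc* CPM per CPM of kappa V segments, and heavy per light chain CPM (linear axes from 0). All but the ratio of *Igkc* are higher in BM than in SP, and *Igkc* per kappa V segment stays between 1.34 and 1.58.

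Kappa made up 94.7% and 96.1% of the light chain counts in SP Gr-1hi, 97.0% and 96.6% in SP Gr-1lo, 94.9% and 95.5% in BM Gr-1hi, and 97.3% and 96.9% in BM Gr-1lo, with Wilson intervals at most 2.35 percentage points wide. The share in both Gr-1lo groups was above that in both Gr-1hi groups. Within lambda, *Iglc1* took 50.7% (48.4 to 53.0) and 57.0% (54.0 to 60.0) of *Iglc1* plus *Iglc2* counts in SP Gr-1hi and 78.1% (75.2 to 80.8) and 83.1% (81.6 to 84.5) in SP Gr-1lo, with 95% Wilson intervals in parentheses. In BM it took 75.6% (65.1 to 83.8, 78 counts) and 61.8% (48.6 to 73.5, 55 counts) in Gr-1hi, and 89.9% (82.4 to 94.4, 99 counts) and 87.0% (81.3 to 91.2, 177 counts) in Gr-1lo. *Iglc1* was therefore the larger part of the pair by counts in each library, although the intervals of libraries 5 and 10 include an even split. The pair leaves out *Iglc3*, which had 642 and 422 counts in SP Gr-1hi, where *Iglc1* had 911 and 601. In each tissue the share of *Iglc1* in the pair was higher in both Gr-1lo libraries than in both Gr-1hi libraries.

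The table also lists *Ighe*, *Iglc3* and *Iglc4*, constant genes outside the 10. *Ighe*, the IgE heavy chain, had 369 and 30 counts in SP Gr-1hi, 50 and 28 in SP Gr-1lo, 3 and 2 in BM Gr-1lo, and 0 in both BM Gr-1hi libraries, which allows up to 0.112 and 0.124 CPM. *Iglc3* was at 19.3 and 13.5 CPM in SP Gr-1hi, 3.76 and 4.91 CPM in SP Gr-1lo, 0.748 and 1.03 CPM in BM Gr-1hi, and 0.287 and 0.246 CPM in BM Gr-1lo, the same order of groups as *Iglc2*. *Iglc4* was at most 0.211 CPM in SP and had 0 counts in all BM libraries.

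Most markers of B cells were higher in SP than in BM, as were most of the constant genes. *Cd22*, an inhibitory receptor of B cells, was at 88.6 ± 20.05 CPM (SD, n = 2) in SP Gr-1hi, 15.1 ± 2.41 CPM in SP Gr-1lo, 2.23 ± 0.871 CPM in BM Gr-1hi, and 0.510 ± 0.0542 CPM in BM Gr-1lo. The summed level of a list of 20 B cell genes was 549 to 808 CPM in SP Gr-1hi, 110 to 139 CPM in SP Gr-1lo, 43.5 to 47.7 CPM in BM Gr-1hi, and 24.3 to 28.6 CPM in BM Gr-1lo. All 20 were called higher in SP Gr-1hi than in BM Gr-1hi, and 18 in SP Gr-1lo than in BM Gr-1lo. The shares over all genes tested were 14.0% and 3.84%. In BM Gr-1lo library 11, 1 of the B cell genes (*Cr2*) was at 0, and none was at 0 in the other libraries. The part of such cells in the levels of the constant genes was not tested.

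*Ighd* and *Iglc2* kept the order of groups of the summed B cell list, and the IgG genes and *Igha* did not. The 10 constant genes together stood at 4.06 and 4.96 times the summed CPM of that list in SP Gr-1hi, 16.9 and 18.6 times in SP Gr-1lo, 6.15 and 5.88 times in BM Gr-1hi, and 17.3 and 20.2 times in BM Gr-1lo. Per unit of the B cell list, then, both Gr-1lo groups carried more constant gene transcript than the Gr-1hi group of the same tissue.

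**Figure D5:**
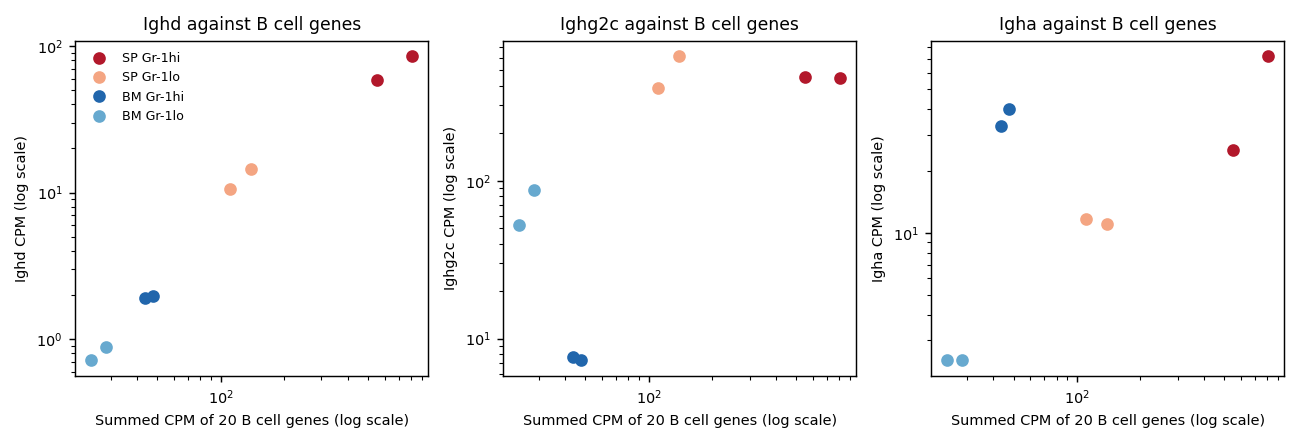
CPM of *Ighd*, *Ighg2c* and *Igha* against the summed CPM of 20 B cell genes in each library, on log axes. *Ighd* rises with the list through the 4 groups, *Ighg2c* is at 386 to 617 CPM in both SP groups while the list spans 110 to 808 CPM, and *Igha* is higher in BM Gr-1hi than in SP Gr-1lo.

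The partners of antibody in the receptor and in secretion were read in the same way. *Cd79a*, which carries the signal of the B cell receptor, was at 71.3 and 50.2 CPM in SP Gr-1hi, 8.80 and 11.9 CPM in SP Gr-1lo, 3.78 and 3.01 CPM in BM Gr-1hi, and 0.492 and 0.945 CPM in BM Gr-1lo. Its partner *Cd79b* was at 46.0 and 32.0 CPM in SP Gr-1hi and 9.29 and 11.9 CPM in SP Gr-1lo, but was higher in BM Gr-1lo (5.84 and 6.37 CPM) than in BM Gr-1hi (2.84 and 2.27 CPM). *Jchain*, which links IgM and IgA into polymers, was at 101 and 52.2 CPM in SP Gr-1hi, 29.1 and 41.0 CPM in SP Gr-1lo, 8.00 and 6.36 CPM in BM Gr-1hi, and 2.95 and 5.65 CPM in BM Gr-1lo. *Pigr*, the epithelial receptor that carries polymeric antibody across mucosa, was at most 0.159 CPM in any library.

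*Jchain* rose in SP in Gr-1hi cells by a log2 FC of 3.42 ± 0.44 (adjusted p = 0.00226) and in Gr-1lo cells by 3.02 ± 0.43 (adjusted p = 0.0104). *Cd79a* rose by 4.16 ± 0.29 (adjusted p = 0.000117) and 3.84 ± 0.32 (adjusted p = 0.000483). *Cd79b* rose in Gr-1hi cells by 3.93 ± 0.24 (adjusted p = 8.11e-05), and in Gr-1lo cells it differed by 0.80 ± 0.20 (adjusted p = 0.0618).

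Of 14 plasma cell genes 13 were tested, and 11 of them were higher in SP in Gr-1hi cells, 6 in Gr-1lo cells, and 6 had a larger difference in Gr-1hi cells by the interaction. Of all genes tested, 14.0%, 3.84% and 7.74% were called in the same comparisons and direction. Their summed level was 353 to 481 CPM in SP Gr-1hi, 568 to 593 CPM in SP Gr-1lo, 125 to 129 CPM in BM Gr-1hi, and 538 to 556 CPM in BM Gr-1lo. Most of this sum came from *Xbp1* and *Txndc5*, which other secretory cells also use: *Xbp1* was at 225 ± 30.4 CPM (SD, n = 2) in SP Gr-1hi and 228 ± 18.1 CPM in BM Gr-1lo. *Tnfrsf17*, which encodes the plasma cell receptor BCMA, was at 0 counts in libraries 6, 9, 10 and 11.

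Lists for other cells gave the following counts of genes higher in SP, in Gr-1hi and then in Gr-1lo cells. Of all genes tested, 14.0% and 3.84% were called higher there, and 1.48% were called lower in Gr-1hi cells. They were 11 and 12 of 12 T cell genes, 5 and 3 of 7 NK cell genes, 5 and 4 of 9 dendritic cell genes (1 was lower in Gr-1hi cells), 7 and 7 of 8 erythroid genes, 4 and 2 of 8 germinal centre and class switching genes, and 3 and 2 of 7 B cell precursor genes. The B cell precursor list also held 1 gene that was lower in Gr-1hi cells, *Cd93* (-1.16 ± 0.19, adjusted p = 0.00315), and its median log2 FC there was -0.86. Of 10 neutrophil and monocyte genes 1 and 2 were higher, and 2 were lower in Gr-1hi cells. The T cell genes summed to 107 to 175 CPM in SP Gr-1hi and 3.08 to 3.13 CPM in BM Gr-1lo. The NK cell genes summed to 13.4 to 17.8 CPM in SP Gr-1hi, 17.3 to 33.5 CPM in SP Gr-1lo, 2.93 to 3.51 CPM in BM Gr-1hi and 11.2 to 33.6 CPM in BM Gr-1lo. The T cell list was thus highest where *Ighd* was, and the summed NK cell list was not. Most of the NK cell sum in Gr-1lo cells came from *Klrk1*. It was at 19.5 ± 10.5 CPM (SD, n = 2) in SP Gr-1lo and 21.6 ± 15.4 CPM in BM Gr-1lo. In Gr-1hi cells it was at 2.85 CPM in SP and 1.004 CPM in BM. By their means, *Gzma* and *Prf1* of the same list kept the order of groups of *Ighd*. *Gzma* was at 3.89 CPM in SP Gr-1hi, 2.11 CPM in SP Gr-1lo, 0.453 CPM in BM Gr-1hi and 0.0796 CPM in BM Gr-1lo.

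The constant genes differed in how alike their profiles were over the 8 libraries, which share group and depth. On log2(CPM + 0.5), Pearson's r was 0.997 between *Ighd* and *Iglc2*, 0.993 between *Igkc* and *Iglc1*, and 0.976 to 0.989 among *Ighg1*, *Ighg2b* and *Ighg2c*. *Igha* had an r of -0.0588 to 0.00499 with these 3 IgG genes, and 0.607 with *Ighd*. These values are descriptions of 8 points in 4 groups.

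Outside the immunoglobulin loci, the 10 genes most like the summed constant genes among 17420 compared were *Derl3* (r = 0.992), *Grap2*, *Cnn3*, *Dusp18*, *Sdc1*, *Ggct*, *Myo1e*, *Clic5*, *Sptb* and *F2rl1* (r = 0.975). *Derl3*, a factor of protein quality control in the endoplasmic reticulum, was at 2.82 CPM on average in SP Gr-1hi, 1.76 CPM in SP Gr-1lo, 0.0993 CPM in BM Gr-1hi and 0.389 CPM in BM Gr-1lo. *Sdc1*, which encodes the plasma cell surface marker CD138, was at 1.99, 1.35, 0.199 and 0.381 CPM in the same order. The mean of *Derl3* in BM Gr-1hi was below what a count of 0 allows there (0.112 and 0.124 CPM). Both genes were under the added 0.5 CPM in both BM groups, so that their r rests partly on values near the floor. In the same order of groups, *Ggct* was at 15.7, 12.6, 3.37 and 6.38 CPM, and *Cnn3* at 7.21, 6.76, 0.618 and 1.61 CPM. The summed plasma cell list had another order, with SP Gr-1lo highest. By Spearman's rho, 14 genes had the same ranks as the summed constant genes, and *Grap2* and *Ggct* were the 2 of the 10 among them.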

How the data were processed

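Per the labels, poly(A) RNA was sequenced as paired 101 bp reads from 8 stranded libraries, 2 per group. The authors checked, aligned and counted the reads (FastQC, STAR and featureCounts in the submitters' processing notes) on GRCm38, and deposited raw counts for 54188 genes, of which 34018 had at least 1 count. The treatment of reads that match several genes, and the strand setting of the counting, are not given in the sources used here. All 8 deposited columns of counts were used. The study's methods call the 2 libraries of a group independent biological replicates.

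Counts were fitted in edgeR 4.0.16 (R 4.3.3) with filterByExpr at its defaults (17650 genes), TMM scaling, and a robust quasi-likelihood model with 1 term per group over all 8 libraries (4 residual degrees of freedom). Benjamini-Hochberg adjustment ran over all genes tested. For SP with BM and for the interaction the limits were 0.05 on the adjusted p and 2 on the FC, and for the subsets 0.01 and 8. The study uses these limits for its own comparisons, and the interaction was added here. CPM use the TMM-scaled library size. The study's own test used quantile-normalized TPM, which are not counts and were not tested here. Shares and ratios are descriptions. A count of 0 allows up to 3 counts (0.0348 to 0.124 CPM), and this limit and the Wilson intervals cover counting error only. Exon lengths, transcripts and identities came from GENCODE M21, which holds 53947 of the 54188 identifiers. The procedure was tested on simulated data.

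The members and the marker lists (B cell, plasma cell, germinal centre and class switching, B cell precursor, T cell, NK cell, dendritic cell, erythroid, neutrophil and monocyte) were chosen with earlier results of these data known. The genes named are the 10 members, the other constant genes, *Cd79a*, *Cd79b*, *Jchain*, *Pigr*, checks of the labels, the 10 genes most like the summed members by Pearson's r, and up to 3 genes per list by CPM in SP. *Cr2* and *Tnfrsf17* were named for being at 0, after their values were seen. Alternatives were RLE and upper-quartile scaling, DESeq2 1.42.0, no filter, fits of the 4 libraries compared, leaving out each library or libraries 5 and 7, shares per kb, lambda with *Iglc3* and *Iglc4*, and Spearman's rho. The wider limits for the subsets and the shares per kb of the shorter transcript were added after seeing the data.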

Additional observations from a re-analysis of the deposited data

Results flagged for a closer look

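The difference between SP and BM was itself different in Gr-1hi and Gr-1lo cells for 4 constant genes, by the interaction term of the edgeR fit. It was larger in Gr-1hi cells by 2.51 ± 0.28 (log2, SE) in *Ighg1* (adjusted p = 0.00283), 2.63 ± 0.61 in *Ighg2b* (adjusted p = 0.0348), 3.07 ± 0.40 in *Ighg2c* (adjusted p = 0.00482) and 1.19 ± 0.30 in *Igkc* (adjusted p = 0.0351). For the 3 IgG genes the mean levels in SP Gr-1hi and SP Gr-1lo were 373 and 348 CPM in *Ighg1*, 204 and 192 CPM in *Ighg2b*, and 450 and 501 CPM in *Ighg2c*. In BM Gr-1hi and BM Gr-1lo they were 9.23 and 49.1 CPM, 7.17 and 41.9 CPM, and 7.46 and 69.7 CPM in the same order. *Igkc* was at 898 and 685 CPM in SP and 51.3 and 89.3 CPM in BM. Of all genes tested, 7.74% were called in the same direction. Of 13 alternative fits, *Ighg2b* lost its call in 8, *Igkc* in 7, *Ighg2c* in 1 and *Ighg1* in 0.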

How the results depend on the processing

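Of 690 log2 FC of single constant genes recomputed under an alternative, 620 kept direction and side of the threshold, 35 lost a call, 19 gained one and 16 turned direction. The count of called genes in Gr-1hi cells (SP against BM) was 7 to 9, and in Gr-1lo cells 6 to 9. For the subsets in SP it went from 0 to 4 at the wider limits. For the subsets in BM it went from 2 to 1 without a filter and to 5 at the wider limits, and was 1 to 3 without single libraries. For the interaction it went from 4 to 7 with DESeq2 and to 2 without libraries 5 and 7, and was 2 to 5 without single libraries. The study calls the BM cells autologous to those of spleen. However, no label ties a library to a mouse and the groups share no replicate numbers. No paired analysis was therefore possible, and the tests ignore any pairing.

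For SP Gr-1hi against BM Gr-1hi, *Igha* was -0.52 without libraries 5 and 7, and -0.62 to 0.90 without single libraries. For the subsets in SP, *Ighg1* and *Ighg2b* were -0.0271 and -0.0458 without a filter. There, without libraries 5 and 7, *Ighg2b* was -0.0219, *Ighg3* -0.64 and *Iglc1* -0.32. Without single libraries the ranges in SP were -0.25 to 0.34 in *Ighg1*, -0.18 to 0.36 in *Ighg2b*, -0.48 to 0.20 in *Ighg2c*, -0.35 to 1.46 in *Ighg3* and -0.0453 to 0.75 in *Iglc1*. For *Ighg3* they were -2.74 to 1.29 for the subsets in BM and -0.46 to 3.56 for the interaction.

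The kappa share with *Iglc3* and *Iglc4* was 93.8% in SP Gr-1hi, 96.2% in SP Gr-1lo, 93.6% in BM Gr-1hi and 96.8% in BM Gr-1lo. Per kb it was 96.4% in SP Gr-1lo and 96.7% in BM Gr-1lo, and per kb of the shorter transcript 96.3% in SP Gr-1lo, 94.4% in BM Gr-1hi and 96.6% in BM Gr-1lo. The unswitched share was 76.6% per kb in BM Gr-1hi, and per kb of the shorter transcript 38.2% in SP Gr-1hi, 22.5% in SP Gr-1lo, 66.1% in BM Gr-1hi and 52.4% in BM Gr-1lo. RLE in place of TMM scaling moved the median log2 FC of all genes from -0.18 to -0.03 for the subsets in BM and from -0.09 to 0.04 in SP, and turned no constant gene. Depth limits *Ighg3* in BM, with 7 to 178 counts per library, and *Iglc2*, with 10 to 23. The cause of these changes was not tested.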
